A study of Mus musculus with 15 samples.

Results

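The genes described here are 38 mouse genes of protein folding and stress handling in the endoplasmic reticulum (ER), read in 15 RNA-seq libraries of colonic crypts. They were taken by gene symbol, not by a cut on measured values, although earlier results of these data were known when they were chosen. All 38 of 38 were in the count table of 32939 genes and among the 17404 genes with enough counts to test. By role they were 9 lumenal chaperones and co-chaperones, 2 lectin chaperones, 4 disulfide isomerases, 7 stress sensors and transcription factors, 9 genes of ER-associated degradation, 3 KDEL receptors and 4 genes of protein import and oligosaccharide transfer. The FL-shAlpl group was on a CDAA diet with fatty liver and carried AAV-shAlpl, a virus-borne short hairpin RNA against the alkaline phosphatase gene Alpl. The FL-shGFP group was on the same CDAA diet with fatty liver and carried the control hairpin AAV-shGFP. The NL-shGFP group was on a normal diet with a normal liver and carried AAV-shGFP. Each group had 5 libraries, every sample was labelled wild type, and every group had received a vector. Diet and liver state differed together, AAV-shAlpl was given in fatty liver alone, and neither the tissue that the vector reached nor the animals behind the libraries were labelled. The series was set up around a signal from hepatocytes to intestinal stem cells and its effect on blood glucose.

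Secreted and membrane proteins enter the ER through the translocon, are glycosylated and folded by chaperones and disulfide isomerases, and leave for the Golgi apparatus, while resident chaperones that escape are brought back by KDEL receptors. When unfolded proteins build up, the sensors IRE1 (Ern1 and Ern2), PERK (Eif2ak3) and ATF6 start the unfolded protein response. IRE1 splices the mRNA of the transcription factor XBP1, ATF6 is cut to release a transcription factor, and PERK slows translation. Together they raise chaperones and the degradation machinery, which returns misfolded proteins to the cytosol for the proteasome. In the colon the mucus-secreting goblet cells carry a heavy folding load, and Ern2 is known as the IRE1 form of mucus-secreting epithelia. Gene-level counts do not show the splicing of Xbp1 or the cutting of Atf6, so every value below is an amount of mRNA.

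Depth was 42.1 to 58.6 M counts per library in FL-shAlpl, 37.5 to 51.7 M in FL-shGFP and 33.3 to 41.4 M in NL-shGFP, and the smallest member count in any library was 14. Levels are given as FPKM, fragments per kilobase of gene and M fragments counted, rescaled by the normalization factors of edgeR (TMM). Values per library are always listed in the order of replicates 1 to 5. The target of the hairpin, Alpl, was scarce in the crypts, with counts of 6, 2, 2, 2 and 0 in FL-shAlpl, 15, 14, 18, 25 and 23 in FL-shGFP, and 0, 2, 0, 0 and 0 in NL-shGFP. All 8 epithelial markers examined, Epcam and Cdh1 among them, had counts in every library. Every T and NK cell marker and every myeloid marker examined had them too, so presence alone does not test the tissue label. Mitochondrially encoded genes took 14.8% to 24.3% of counts in FL-shAlpl, 13.7% to 21.5% in FL-shGFP and 28.0% to 37.5% in NL-shGFP. NL-shGFP replicates 3 and 4 were the closest pair of libraries, with a median chi-square between their counts of 1.55 against 0.910 for sampling alone if each fragment gives 2 counts, and they were kept as separate samples; the labels do not say whether they come from 1 source. Bulk RNA cannot tell fewer cells of a type from less RNA per cell, and this holds for every difference below.

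The promoters are shown first, because the classic ER stress elements lie in them and the members that carry one did not all move the same way. RefSeq windows of GRCm38.p6, 250 bases before to 50 bases after the annotated start, were matched by symbol for 29 of the 38 members. Of these, 9 held an ER stress response element (ERSE: CCAAT, then 9 bases of any kind, then CCACG, on either strand), or 31.0% of the members with a window, against 0.137% of all 27025 genes with a window. The second form, ERSE-II (ATTGG, 1 base of any kind, CCACG), was in 2 members, Herpud1 and Dnajb11, or 6.9%, against 0.0444% of all genes. The unfolded protein response element (UPRE: TGACG followed directly by TGG) was in 1 member, Kdelr3, or 3.45%, against 0.714% of all genes. No match was counted for more than 1 of the 3 motifs in the same member. Members and motifs were both picked for their part in ER stress, so these shares describe the list and are no test. The matches are printed 5′ to 3′ on the strand of the gene with 12 bases on each side, the motif in capitals; one that starts with CGTGG or with CCACGTCA lies on the opposite strand.
Hspa5, ERSE, chr2:34772013-34772055, plus strand: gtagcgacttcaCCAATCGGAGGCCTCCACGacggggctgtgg
Hsp90b1, ERSE, distal, chr10:86705626-86705668, minus strand: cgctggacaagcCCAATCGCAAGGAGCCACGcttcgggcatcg
Hsp90b1, ERSE, proximal, chr10:86705521-86705563, minus strand: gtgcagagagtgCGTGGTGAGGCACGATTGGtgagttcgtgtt
Creld2, ERSE, chr15:88819508-88819550, plus strand: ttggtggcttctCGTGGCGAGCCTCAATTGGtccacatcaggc
Pdia6, ERSE, chr12:17266479-17266521, plus strand: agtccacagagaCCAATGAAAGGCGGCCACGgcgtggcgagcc
Canx, ERSE, chr11:50325788-50325830, minus strand: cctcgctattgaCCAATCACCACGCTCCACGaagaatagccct
Syvn1, ERSE, chr19:6046520-6046562, plus strand: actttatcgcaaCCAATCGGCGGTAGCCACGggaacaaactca
Calr, ERSE, chr8:84847063-84847105, minus strand: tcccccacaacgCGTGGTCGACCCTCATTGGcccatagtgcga
Dnajc3, ERSE, chr14:118937815-118937857, plus strand: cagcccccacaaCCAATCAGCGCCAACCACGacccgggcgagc
Derl3, ERSE, chr10:75893230-75893272, plus strand: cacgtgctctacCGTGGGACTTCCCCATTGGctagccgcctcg
Herpud1, ERSE-II, chr8:94386365-94386399, plus strand: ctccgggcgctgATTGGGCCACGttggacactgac
Kdelr3, UPRE, chr15:79516366-79516397, plus strand: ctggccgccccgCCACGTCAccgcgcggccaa

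These matches began between 30 bases (Kdelr3) and 212 bases (the distal element of Hsp90b1) before the start, and that of Herpud1 began 52 bases before it. The match in Dnajb11 began 7 bases after the start. The whole upstream stretches of 250 bases follow, for Hspa5, the best known ERSE promoter, for Pdia6, an ERSE gene whose mRNA fell in FL-shGFP, and for Herpud1, an ERSE-II gene whose mRNA rose there; capitals mark the motif.
Hspa5, chr2:34771840-34772089, plus strand: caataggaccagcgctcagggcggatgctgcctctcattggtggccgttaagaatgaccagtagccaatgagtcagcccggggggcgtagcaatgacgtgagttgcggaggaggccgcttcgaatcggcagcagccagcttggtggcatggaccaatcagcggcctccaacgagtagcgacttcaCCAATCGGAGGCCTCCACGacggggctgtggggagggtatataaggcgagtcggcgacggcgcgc
Pdia6, chr12:17266339-17266588, plus strand: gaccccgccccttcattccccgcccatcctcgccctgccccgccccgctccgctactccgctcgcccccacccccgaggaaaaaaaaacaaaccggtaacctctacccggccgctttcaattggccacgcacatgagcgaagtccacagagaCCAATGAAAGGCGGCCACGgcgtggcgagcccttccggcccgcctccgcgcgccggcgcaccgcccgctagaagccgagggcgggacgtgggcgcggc
Herpud1, chr8:94386179-94386428, plus strand: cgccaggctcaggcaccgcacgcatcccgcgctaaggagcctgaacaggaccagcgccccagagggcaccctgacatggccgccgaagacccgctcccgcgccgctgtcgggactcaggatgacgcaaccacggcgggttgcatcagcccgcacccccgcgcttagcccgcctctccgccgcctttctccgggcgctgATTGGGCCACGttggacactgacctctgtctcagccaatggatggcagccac

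Of the 9 members with an ERSE, 6 were lower in FL-shGFP than in NL-shGFP (Hspa5, Hsp90b1, Creld2, Pdia6, Canx and Syvn1), none was higher and 3 did not pass (Calr, Dnajc3 and Derl3), where 21.6% of all genes tested were lower and 25.1% higher. The median log2 fold change was -0.44. Herpud1 with its ERSE-II was higher and Dnajb11 did not pass. Of the 17 members with a window and no match, 2 were higher, 4 were lower and 11 did not pass, with a median of -0.10, and the lower share was near that of all genes. Among the 9 members with no window, Hyou1, Manf, Ern2, Creb3l1, Kdelr2 and Ostc were lower and Atf6 was higher. Derl1 and Sec61a1 of these did not pass. Lower calls were thus not confined to members with a match, and a link between match and call was not tested. A match describes the letters only; binding was not measured in these samples, and some members known to answer ER stress held no exact match in this window.

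The calls across all 38 members frame the rest. FL-shGFP crypts had less mRNA of most folding genes than NL-shGFP crypts and more mRNA of Herpud1, Dnajb9, Sel1l and Atf6. At an adjusted p below 0.05 (edgeR, two-sided, adjusted over all 17404 genes), 17 members were lower, where 21.6% of all genes tested were lower, and 4 were higher, where 25.1% of all genes were higher. That is 44.7% of the members lower and 10.5% higher, and 17 did not pass. The median log2 fold change was -0.17 over the members and 0.00 over all genes tested. For 12 members all 5 FL-shGFP libraries lay below all 5 NL-shGFP libraries, and for 2, Herpud1 and Atf6, all lay above. How many of all genes tested were separated in this way was not counted. The plot of fold changes by role shows the 17 lower members among the chaperones, disulfide isomerases and KDEL receptors, with Ern2, Creb3l1, Syvn1 and Ostc from other roles, and the degradation genes on both sides of 0.

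**Figure D1:**
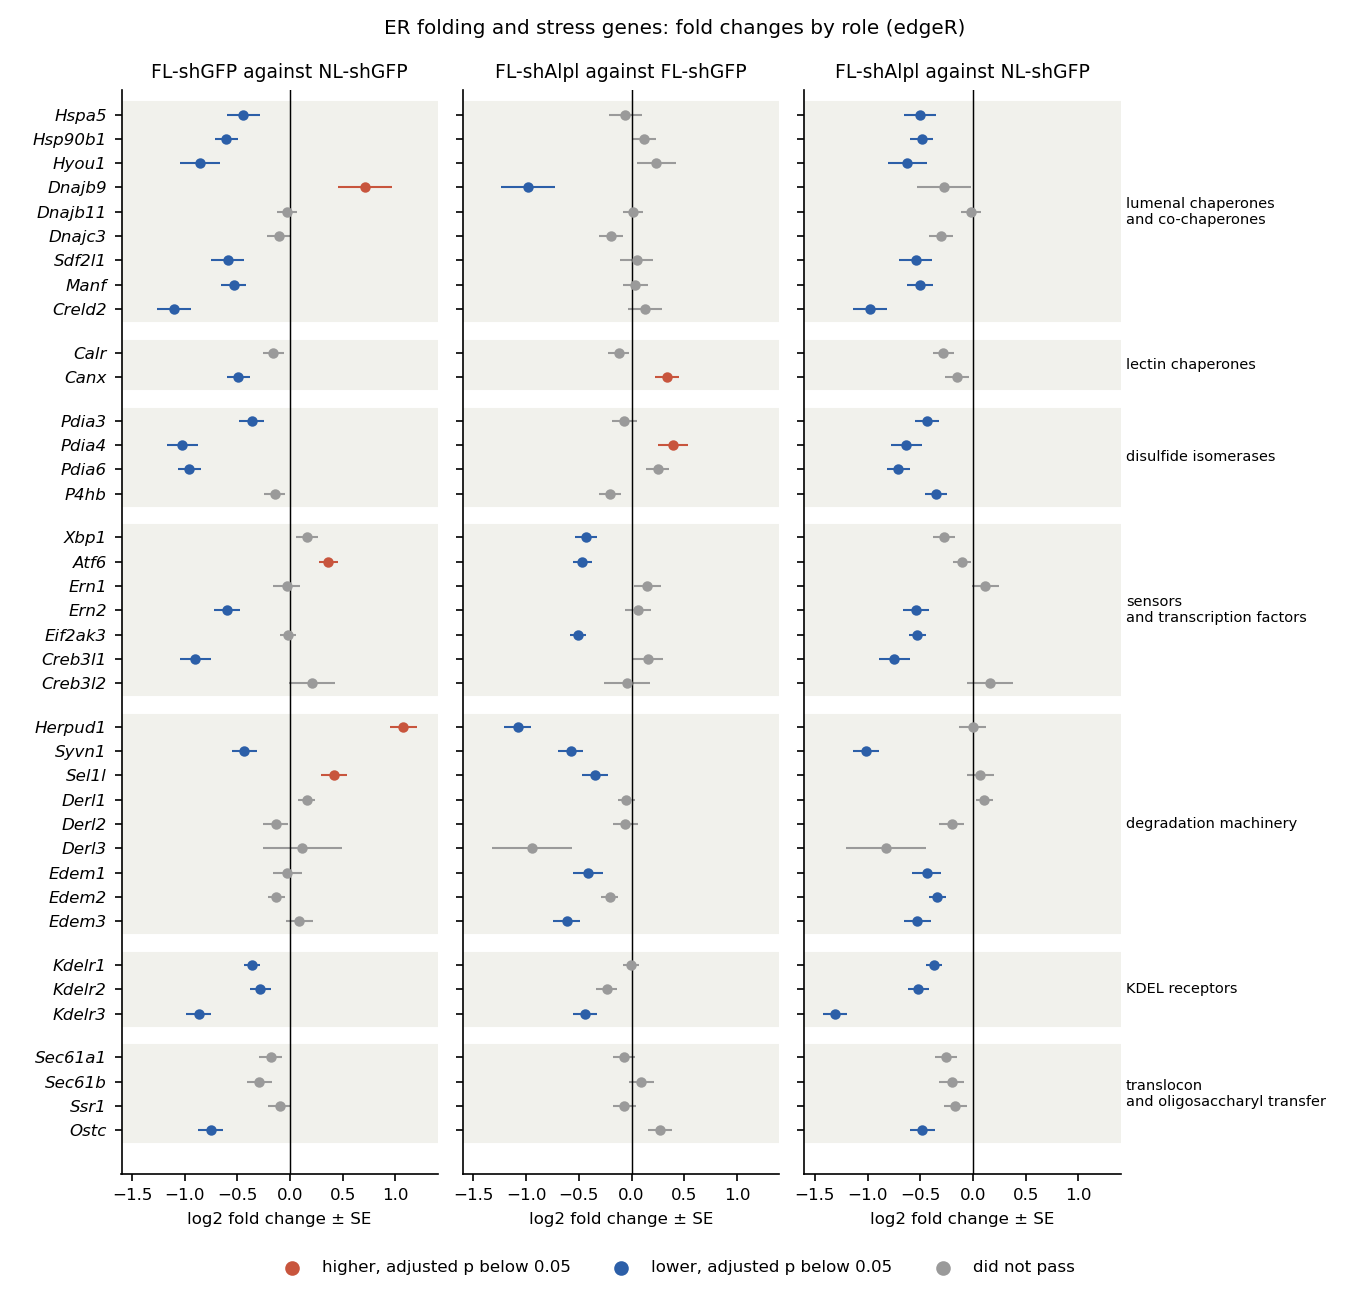
Log2 fold change (x axis) with its standard error for each of the 38 genes (y axis, grouped by role) in the 3 comparisons, from edgeR with 5 libraries in each group. In FL-shGFP against NL-shGFP 17 genes were lower and 4 higher, in FL-shAlpl against FL-shGFP 10 were lower and 2 higher, and in FL-shAlpl against NL-shGFP 21 were lower and none higher.

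In FL-shAlpl against FL-shGFP 10 members were lower, where 17.9% of all genes tested were lower, and 2 were higher, where 18.0% were higher, and 26 did not pass. These shares were 26.3% and 5.26% of the members. The lower genes were Herpud1, Sel1l, Syvn1, Edem1 and Edem3 of the degradation machinery, the co-chaperone gene Dnajb9, the sensor and factor genes Atf6, Eif2ak3 and Xbp1, and the KDEL receptor gene Kdelr3. The higher ones were Canx and Pdia4. The median was -0.06, against 0.00 over all genes. In FL-shAlpl against NL-shGFP 21 members were lower, where 8.12% of all genes were lower, and none was higher, where 9.31% were higher, and 17 did not pass. Library totals in place of TMM factors moved the median of all genes in that comparison to 0.19. Under that setting 9 members were lower and 1, Derl1, was higher, where 930 of 17404 genes were lower and 2783 higher. With TMM factors the median of the members in that comparison was -0.40, against 0.05 over all genes. For 17 members all 5 FL-shAlpl libraries lay below all 5 NL-shGFP libraries, a count that was not made over all genes tested. Any pair of these comparisons shares the libraries of 1 group, so their values are set side by side and are not independent.

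The lumenal chaperones were led by Hspa5, which encodes BiP, the main HSP70 chaperone of the ER. In FL-shGFP 6 of the 9 in this role were lower than in NL-shGFP and 1, Dnajb9, was higher. These were 66.7% and 11.1%, where 21.6% of all genes tested were lower and 25.1% higher. Hspa5 measured 161, 101, 137, 118 and 128 FPKM in FL-shAlpl, 140.1, 167, 111, 138 and 113 in FL-shGFP, and 156, 156, 186, 186 and 227 in NL-shGFP. FL-shGFP and NL-shGFP overlapped, since FL-shGFP replicate 2 stood within the NL-shGFP range. Hspa5 was lower in FL-shGFP (log2 fold change -0.44 ± 0.15, adjusted p = 0.0281) and in FL-shAlpl (log2 fold change -0.50 ± 0.15, adjusted p = 0.0350), each against NL-shGFP. The first call was lost without NL-shGFP replicate 3, 4 or 5 or FL-shGFP replicate 3 or 5 (adjusted p of 0.0510 to 0.0794). The second was lost in 7 of its 10 such fits, those without NL-shGFP replicate 3, 4 or 5 or FL-shAlpl replicate 2, 3, 4 or 5 (adjusted p of 0.0524 to 0.0915).

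Hsp90b1 stood at 101, 70.3, 86.8, 75.96 and 75.95 FPKM in FL-shAlpl, 81.9, 79.8, 71.6, 68.4 and 75.2 in FL-shGFP, and 106, 104, 119.9, 123 and 122 in NL-shGFP. This gene encodes GRP94, the HSP90 chaperone of the ER, and both fatty-liver groups lay wholly below NL-shGFP. Hsp90b1 fell in FL-shGFP (log2 fold change -0.61 ± 0.11, adjusted p = 0.000555) and did not pass between the fatty-liver groups (log2 fold change 0.12 ± 0.11). Hyou1 had 21.2, 9.899, 16.2, 15.3 and 13.97 FPKM in FL-shAlpl, 11.96, 15.3, 12.6, 11.2 and 14.1 in FL-shGFP, and 18.5, 18.8, 23.9, 23.98 and 32.8 in NL-shGFP. Hyou1 encodes GRP170, the exchange factor that resets BiP, and it fell in FL-shGFP (log2 fold change -0.86 ± 0.19, adjusted p = 0.00192), again without overlap. FL-shAlpl replicate 1 reached the NL-shGFP range, and the lower level of FL-shAlpl against NL-shGFP (log2 fold change -0.62 ± 0.19, adjusted p = 0.0302) lost its call when NL-shGFP replicate 3, 4 or 5 or FL-shAlpl replicate 2, 4 or 5 was left out (adjusted p of 0.0515 to 0.0827).

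Sdf2l1 measured 35.7, 25.3, 26.4, 39.9 and 29.4 FPKM in FL-shAlpl, 27.8, 42.7, 22.8, 30.8 and 27.4 in FL-shGFP, and 42.5, 43.7, 49.3, 43.1 and 49.9 in NL-shGFP. Sdf2l1, a partner of the BiP cycle, fell in FL-shGFP (log2 fold change -0.59 ± 0.16, adjusted p = 0.00643), with FL-shGFP replicate 2 inside the NL-shGFP range. Against NL-shGFP the FL-shAlpl libraries were all lower (log2 fold change -0.54 ± 0.16, adjusted p = 0.0255), a call lost without NL-shGFP replicate 3 or 5 or FL-shAlpl replicate 2, 3 or 5 (adjusted p of 0.0539 to 0.0617). Manf stood at 30.3, 22.1, 22.4, 18.8 and 23.01 FPKM in FL-shAlpl, 22.9, 25.6, 18.98, 22.9 and 23.6 in FL-shGFP, and 28.8, 30.3, 34.4, 34.6 and 36.9 in NL-shGFP. Manf encodes a small secreted protein that binds BiP, and its FL-shGFP libraries were all below NL-shGFP (log2 fold change -0.54 ± 0.12, adjusted p = 0.00235). The Manf gene shares exon bases with Dcaf1 on the opposite strand and with Rbm15b, and the strand setting of the counts is not given, so some of its reads may belong to those genes.

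Creld2 had 35.8, 17.9, 26.2, 28.1 and 22.5 FPKM in FL-shAlpl, 22.6, 30.9, 22.4, 20.6 and 22.9 in FL-shGFP, and 44.1, 47.5, 51.7, 53.4 and 59.9 in NL-shGFP. Creld2, a disulfide isomerase-like ER protein, had the largest fall of the 38 members in FL-shGFP (log2 fold change -1.10 ± 0.16, adjusted p = 0.000108), and no fatty-liver library reached the NL-shGFP range. Dnajb9 measured 10.7, 15.3, 14.6, 8.22 and 17.3 FPKM in FL-shAlpl, 30.4, 31.3, 16.8, 38.4 and 13.9 in FL-shGFP, and 14.4, 13.7, 16.7, 15.9 and 19.2 in NL-shGFP. Dnajb9, the co-chaperone ERdj4 that holds BiP on IRE1, was the chaperone that rose in FL-shGFP (log2 fold change 0.71 ± 0.26, adjusted p = 0.0336) and fell in FL-shAlpl against FL-shGFP (log2 fold change -0.98 ± 0.26, adjusted p = 0.00954). FL-shGFP replicates 1, 2 and 4 were above every other library, and replicates 3 and 5 lay within the NL-shGFP range. The rise lost its call when any 1 of NL-shGFP replicates 1 to 4 or of FL-shGFP replicates 1, 2 and 4 was left out (adjusted p of 0.0547 to 0.102), while the fall passed in every fit that left out 1 library. The co-chaperones Dnajb11 and Dnajc3 passed in none of the 3 comparisons, and their group means ran from 43.0 to 44.1 FPKM and from 22.6 to 27.9 FPKM.

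**Figure D2:**
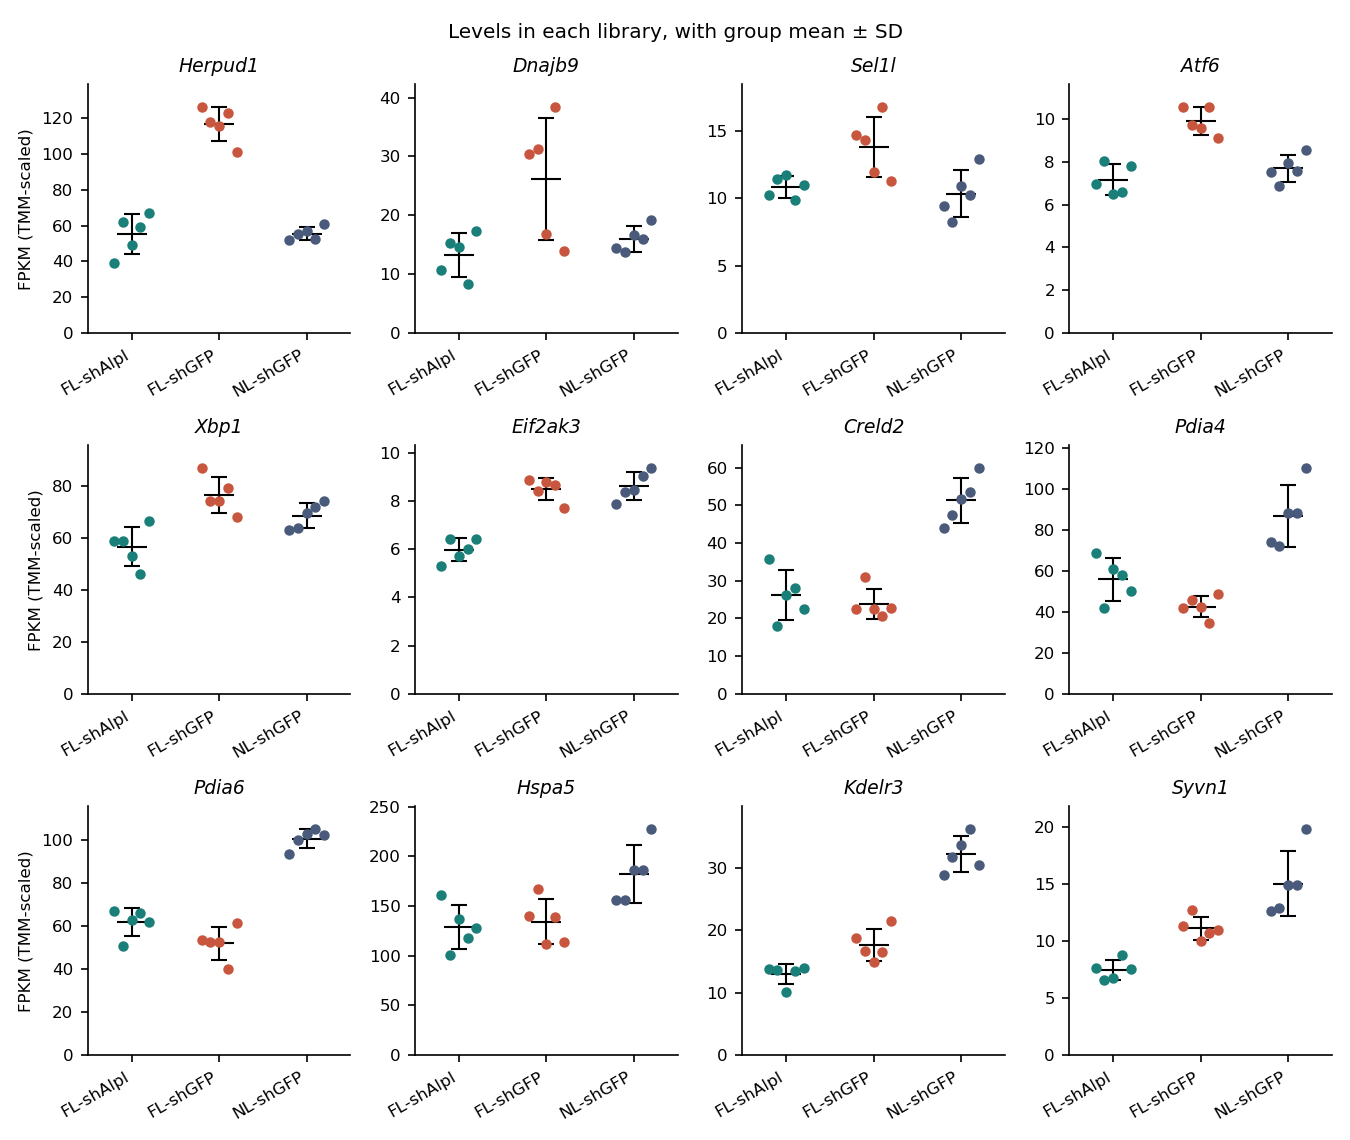
Levels of 12 genes (y axis, FPKM scaled by TMM factors, from 0) in each library of FL-shAlpl, FL-shGFP and NL-shGFP (x axis), with points for libraries and bars for the group mean ± SD of 5 libraries. Herpud1 was at 39.3 to 67.2 in FL-shAlpl, 101 to 126 in FL-shGFP and 51.8 to 60.7 in NL-shGFP, and Pdia6 at 50.8 to 67.0, 40.0 to 61.2 and 93.5 to 105.

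The lectin chaperones calnexin (Canx, membrane-bound) and calreticulin (Calr, lumenal) hold glycoproteins while they fold. Canx stood at 94, 72.04, 89.7, 65.7 and 76.1 FPKM in FL-shAlpl, 66.4, 57.1, 67.8, 56.6 and 67.3 in FL-shGFP, and 87.8, 79.2, 91.6, 86.97 and 97.1 in NL-shGFP. Canx fell in FL-shGFP against NL-shGFP (log2 fold change -0.49 ± 0.11, adjusted p = 0.00281), with no overlap, and was higher in FL-shAlpl than in FL-shGFP (log2 fold change 0.33 ± 0.11, adjusted p = 0.0308), with overlap. The higher level lost its call when FL-shGFP replicate 2 or 4 or FL-shAlpl replicate 1 or 3 was left out (adjusted p of 0.0667 to 0.0763). Calr was the most abundant of the 38 genes in every group, at 299 ± 15.4, 326 ± 33.8 and 364 ± 17.4 FPKM in FL-shAlpl, FL-shGFP and NL-shGFP (SD, n = 5 each), and it passed in no comparison (log2 fold change -0.16 ± 0.10, adjusted p = 0.211 in FL-shGFP against NL-shGFP). In FL-shAlpl against NL-shGFP it came nearer (log2 fold change -0.28 ± 0.10, adjusted p = 0.069), with no overlap. Calr was called lower there with upper-quartile factors, 1 CPM in 5 libraries, DESeq2, voom with quality weights and only the groups compared.

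Disulfide isomerases form and reshuffle the disulfide bonds of secreted proteins, and 3 of the 4 were lower in FL-shGFP than in NL-shGFP, where 21.6% of all genes tested were lower. Pdia6 had 66.97, 50.8, 62.7, 66.1 and 61.6 FPKM in FL-shAlpl, 53.5, 52.4, 52.3, 39.98 and 61.2 in FL-shGFP, and 93.5, 99.8, 102, 105 and 102 in NL-shGFP. Pdia6, which also limits IRE1 and PERK signalling, fell without overlap (log2 fold change -0.96 ± 0.11, adjusted p = 2.61e-05). Pdia4 measured 68.8, 41.8, 61.05, 57.96 and 50.1 FPKM in FL-shAlpl, 42.04, 45.6, 42.6, 34.4 and 48.6 in FL-shGFP, and 74.4, 72.3, 88.5, 88.2 and 110.3 in NL-shGFP. Pdia4 also fell in FL-shGFP (log2 fold change -1.02 ± 0.15, adjusted p = 9.5e-05). In FL-shAlpl it was still lower than in NL-shGFP (log2 fold change -0.63 ± 0.15, adjusted p = 0.00808), with no overlap. It was higher in FL-shAlpl than in FL-shGFP (log2 fold change 0.39 ± 0.15, adjusted p = 0.0455), with overlap. That higher level lost its call when any 1 of FL-shGFP replicates 1 to 4 or of FL-shAlpl replicates 1, 3 and 4 was left out (adjusted p of 0.0555 to 0.117). Without FL-shGFP replicate 5, on the other hand, 5 members were higher in FL-shAlpl than in FL-shGFP: Canx, Pdia4, Pdia6, Creb3l1 and Ostc.

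Pdia3 stood at 241, 236, 237, 185 and 235 FPKM in FL-shAlpl, 282, 226, 208, 236 and 234 in FL-shGFP, and 285, 279, 323, 334 and 309.8 in NL-shGFP. Pdia3, the isomerase that works with calnexin and calreticulin, fell less (log2 fold change -0.37 ± 0.11, adjusted p = 0.0168), and FL-shGFP replicate 1 reached the NL-shGFP range. P4hb, the founding protein disulfide isomerase and the second most abundant of the 38 genes, stood at 265 ± 30.5, 305 ± 18.7 and 338 ± 11.2 FPKM in FL-shAlpl, FL-shGFP and NL-shGFP (SD, n = 5 each). It was lower in FL-shAlpl than in NL-shGFP (log2 fold change -0.35 ± 0.10, adjusted p = 0.0278), with no overlap, but not without NL-shGFP replicate 2, 3, 4 or 5 or FL-shAlpl replicate 3 or 5 (adjusted p of 0.0552 to 0.0741).

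Among the sensors and transcription factors 1 of 7 was higher and 2 were lower in FL-shGFP against NL-shGFP, and 3 were lower in FL-shAlpl against FL-shGFP. The first shares were 14.3% and 28.6%, beside 25.1% and 21.6% of all genes tested, and the lower share was near that of all genes. The last was 42.9%, beside 17.9%. Atf6 had 6.97, 8.03, 6.48, 6.58 and 7.799 FPKM in FL-shAlpl, 10.6, 9.72, 9.59, 10.6 and 9.11 in FL-shGFP, and 7.54, 6.85, 7.93, 7.59 and 8.56 in NL-shGFP. Atf6, the sensor that is cut in the Golgi, rose in FL-shGFP (log2 fold change 0.36 ± 0.09, adjusted p = 0.00338) and was lower in FL-shAlpl than in FL-shGFP (log2 fold change -0.47 ± 0.09, adjusted p = 0.00127), with no overlap on either side. Eif2ak3 measured 5.300, 6.41, 5.71, 6.02 and 6.41 FPKM in FL-shAlpl, 8.86, 8.41, 8.78, 8.67 and 7.73 in FL-shGFP, and 7.85, 8.37, 8.47, 9.01 and 9.36 in NL-shGFP. Eif2ak3, which encodes PERK, did not pass in FL-shGFP against NL-shGFP (log2 fold change -0.02 ± 0.08, adjusted p = 0.846) and was lower in FL-shAlpl than in either (log2 fold change -0.51 ± 0.08, adjusted p = 0.000391 against FL-shGFP). All 5 FL-shAlpl libraries were below all 10 others.

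Xbp1 stood at 59.1, 58.98, 53.2, 46.03 and 66.6 FPKM in FL-shAlpl, 87.03, 74.2, 74.2, 79.5 and 68.2 in FL-shGFP, and 63.3, 63.9, 69.8, 72.1 and 74.4 in NL-shGFP. Xbp1 did not pass in FL-shGFP against NL-shGFP (log2 fold change 0.16 ± 0.11, adjusted p = 0.229) and was lower in FL-shAlpl than in FL-shGFP (log2 fold change -0.43 ± 0.11, adjusted p = 0.00627), with no overlap. Ern1 had 4.33, 5.11, 5.76, 4.52 and 6.05 FPKM in FL-shAlpl, 4.88, 5.85, 3.91, 4.79 and 3.78 in FL-shGFP, and 5.13, 4.06, 4.75, 4.96 and 4.87 in NL-shGFP. Ern1, the IRE1 form found in most tissues, passed in no comparison, and its 3 ranges overlapped. Ern2 measured 17.2, 18.99, 21.1, 24.7 and 28.4 FPKM in FL-shAlpl, 21.97, 20.6, 19.5, 21 and 23.03 in FL-shGFP, and 28.7, 29.3, 32.95, 31.8 and 37.7 in NL-shGFP. Ern2 was the more abundant IRE1 gene throughout and fell in FL-shGFP (log2 fold change -0.60 ± 0.12, adjusted p = 0.00136), all 5 libraries lying below NL-shGFP, and it stayed lower in FL-shAlpl (log2 fold change -0.54 ± 0.12, adjusted p = 0.00783 against NL-shGFP).

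Per length, Ern2 made up 80.8% ± 2.56 of the summed IRE1 level in FL-shAlpl, 82.0% ± 2.92 in FL-shGFP and 87.0% ± 1.44 in NL-shGFP (SD, n = 5 each). The FL-shAlpl shares, 78.6% to 84.5%, lay below the NL-shGFP shares, 84.8% to 88.6%, and the FL-shGFP shares, 77.9% to 85.9%, overlapped both. Creb3l1 stood at 47.96, 47.7, 53.6, 62.2 and 57.9 FPKM in FL-shAlpl, 42.5, 40.3, 48.9, 39.5 and 71.02 in FL-shGFP, and 78.1, 82.4, 95.6, 94.9 and 100.4 in NL-shGFP. Creb3l1, the membrane-bound transcription factor OASIS, fell in FL-shGFP (log2 fold change -0.90 ± 0.15, adjusted p = 0.000319), although replicate 5 stood well above the other 4. Its relative Creb3l2 was low, at 0.794 to 2.20 FPKM over the 15 libraries, and passed in no comparison; without NL-shGFP replicate 5 it was higher in FL-shGFP than in NL-shGFP (log2 fold change 0.49, adjusted p = 0.0291).

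The degradation machinery held the largest rise of the 38 members, and 2 of its 9 genes were higher, 1 lower and 6 not past the threshold in FL-shGFP against NL-shGFP, while 5 were lower in FL-shAlpl against FL-shGFP. The share higher, 22.2%, was near the 25.1% of all genes tested, and 11.1% were lower, beside 21.6%. In FL-shAlpl against FL-shGFP 55.6% were lower, beside 17.9%. Herpud1 had 39.3, 61.9, 49.1, 59.2 and 67.2 FPKM in FL-shAlpl, 126, 118, 116, 123 and 101 in FL-shGFP, and 51.8, 55.6, 56.8, 52.2 and 60.7 in NL-shGFP. Herpud1 encodes HERP, a membrane protein that organises the degradation complex and is itself a strong target of the unfolded protein response. It rose in FL-shGFP (log2 fold change 1.08 ± 0.13, adjusted p = 2.64e-05) and was lower in FL-shAlpl than in FL-shGFP (log2 fold change -1.08 ± 0.13, adjusted p = 7.85e-05), and in both cases no library overlapped. The FL-shAlpl and NL-shGFP means lay close together, at 55.3 ± 11.1 and 55.4 ± 3.65 FPKM (SD, n = 5 each; log2 fold change 0.00 ± 0.13, adjusted p = 0.991). By abundance among the 38 genes Herpud1 ranked 13 in FL-shAlpl, 5 in FL-shGFP and 14 in NL-shGFP.

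The ratio of Herpud1 to Pdia6 ran from 0.587 to 1.22 in FL-shAlpl, from 1.65 to 3.08 in FL-shGFP and from 0.498 to 0.594 in NL-shGFP. Set against Hspa5 it ran from 0.244 to 0.615 in FL-shAlpl, from 0.706 to 1.04 in FL-shGFP and from 0.267 to 0.357 in NL-shGFP. With both measures the FL-shGFP libraries stood apart from the other 10, as they did for Herpud1 alone. Pdia6 and Hspa5 were themselves lower in FL-shGFP than in NL-shGFP, so the ratios restate those differences and are no separate evidence.

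SEL1L and the ubiquitin ligase HRD1, encoded by Syvn1, form the core of this machinery, and their genes differed. Sel1l measured 10.2, 11.4, 11.8, 9.85 and 11.02 FPKM in FL-shAlpl, 14.7, 14.3, 11.99, 16.8 and 11.3 in FL-shGFP, and 9.46, 8.26, 10.9, 10.3 and 12.9 in NL-shGFP. Sel1l was higher in FL-shGFP than in NL-shGFP (log2 fold change 0.42 ± 0.13, adjusted p = 0.0139) and lower in FL-shAlpl than in FL-shGFP (log2 fold change -0.35 ± 0.13, adjusted p = 0.0418), with overlap in both. FL-shGFP replicates 3 and 5 were the low ones, as they were for Dnajb9. The second call was lost without FL-shGFP replicate 1, 2 or 4 or FL-shAlpl replicate 1, 4 or 5 (adjusted p of 0.0601 to 0.121). Syvn1 stood at 7.57, 6.58, 6.76, 8.73 and 7.52 FPKM in FL-shAlpl, 11.3, 12.7, 9.95, 10.7 and 10.9 in FL-shGFP, and 12.6, 12.9, 14.9, 14.9 and 19.8 in NL-shGFP. Syvn1 was lower in FL-shGFP than in NL-shGFP (log2 fold change -0.44 ± 0.12, adjusted p = 0.00851) and lower again in FL-shAlpl (log2 fold change -0.58 ± 0.12, adjusted p = 0.00256 against FL-shGFP and log2 fold change -1.01 ± 0.12, adjusted p = 0.000114 against NL-shGFP). Its exons share 91 bases with those of Mrpl49 on the opposite strand, and Mrpl49 had 23376 counts over the 15 libraries against 34674 for Syvn1, so part of the Syvn1 count may be its neighbour's.

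The EDEM genes encode lectins that mark misfolded glycoproteins for removal, and they did not pass in FL-shGFP against NL-shGFP. Edem3 had 14.9, 16.6, 15.9, 11.2 and 17.3 FPKM in FL-shAlpl, 25.2, 20.5, 21.9, 26.3 and 22.2 in FL-shGFP, and 21.7, 16.9, 24.2, 23.8 and 22.6 in NL-shGFP. Edem3 was lower in FL-shAlpl than in FL-shGFP (log2 fold change -0.61 ± 0.13, adjusted p = 0.00239), all 5 libraries lying below. Edem1 measured 13.9, 16.2, 15.7, 12.4 and 15.2 FPKM in FL-shAlpl, 23.8, 20.9, 15.2, 23.2 and 14.5 in FL-shGFP, and 18.02, 17.7, 21.6, 21.3 and 20.9 in NL-shGFP. Edem1 was also lower there (log2 fold change -0.41 ± 0.14, adjusted p = 0.0300), with overlap because FL-shGFP replicates 3 and 5 were low; the call was lost without FL-shGFP replicate 1, 2 or 4 or FL-shAlpl replicate 1 or 4 (adjusted p of 0.0613 to 0.0897). Edem1 against NL-shGFP (log2 fold change -0.44 ± 0.14, adjusted p = 0.0383 in FL-shAlpl) was lost in 7 of 10 such fits, those without NL-shGFP replicate 3, 4 or 5 or FL-shAlpl replicate 1, 3, 4 or 5 (adjusted p of 0.0517 to 0.0880).

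Edem2 was lower in FL-shAlpl than in NL-shGFP (log2 fold change -0.34 ± 0.08, adjusted p = 0.0122) and did not pass against FL-shGFP (log2 fold change -0.21 ± 0.08, adjusted p = 0.0634). It passed there without FL-shAlpl replicate 4 or 5 (adjusted p of 0.0415 and 0.0428), with RLE or upper-quartile factors, with 1 CPM in 5 libraries and with DESeq2. The derlins, membrane proteins of the exit channel, passed in no comparison. Derl1 was the main form, at 22.6 ± 1.94, 23.4 ± 2.18 and 21.1 ± 0.221 FPKM in FL-shAlpl, FL-shGFP and NL-shGFP (SD, n = 5 each). Derl2 ran from 3.16 to 5.61 FPKM and Derl3 from 0.146 to 0.728 FPKM over the 15 libraries, and Derl2 shares 231 exon bases with Mis12 on the opposite strand. Derl3 had a log2 fold change of -0.94 ± 0.38 in FL-shAlpl against FL-shGFP (adjusted p = 0.0619), and it passed without FL-shAlpl replicate 1 (adjusted p = 0.0483) and without FL-shGFP replicate 5 (adjusted p = 0.0287).

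KDEL receptors sit mainly in the Golgi and send escaped chaperones back, and all 3 were lower in FL-shGFP than in NL-shGFP, where 21.6% of all genes tested were lower. Kdelr3 stood at 13.8, 13.7, 10.1, 13.4 and 14.02 FPKM in FL-shAlpl, 18.8, 16.7, 14.9, 16.4 and 21.5 in FL-shGFP, and 28.9, 31.7, 33.7, 36.3 and 30.5 in NL-shGFP. Kdelr3 fell in FL-shGFP (log2 fold change -0.87 ± 0.12, adjusted p = 6.3e-05) and was lower still in FL-shAlpl (log2 fold change -0.44 ± 0.12, adjusted p = 0.00931 against FL-shGFP and log2 fold change -1.31 ± 0.12, adjusted p = 1.44e-05 against NL-shGFP), so that the 3 groups stood in separate ranges. Kdelr1 had 73.8, 77.6, 70.98, 75.8 and 76.6 FPKM in FL-shAlpl, 77.6, 71.3, 70.1, 79.2 and 78.6 in FL-shGFP, and 90.7, 90.4, 104, 98.3 and 102 in NL-shGFP. Kdelr1 fell without overlap (log2 fold change -0.36 ± 0.08, adjusted p = 0.00144) and did not pass between the fatty-liver groups (log2 fold change -0.01 ± 0.08, adjusted p = 0.944). Kdelr2 measured 72.6, 73.7, 68.8, 67.4 and 75.4 FPKM in FL-shAlpl, 87.9, 82.9, 68.7, 101 and 80.1 in FL-shGFP, and 95.7, 92.7, 109, 109 and 106 in NL-shGFP. Kdelr2 was lower in FL-shGFP (log2 fold change -0.28 ± 0.10, adjusted p = 0.0280), where replicate 4 lay inside the NL-shGFP range, and the call was lost without NL-shGFP replicate 3, 4 or 5 or FL-shGFP replicate 3 (adjusted p of 0.0523 to 0.0702).

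As a share of the summed KDEL receptor level, Kdelr3 made up 6.73% to 8.63% in FL-shAlpl, 8.35% to 11.9% in FL-shGFP and 12.8% to 14.9% in NL-shGFP. Kdelr1 made up 46.0% to 48.4%, 40.2% to 45.6% and 40.4% to 42.7% in the same groups, and Kdelr2 the rest. The receptor family therefore differed in makeup as well as in sum, the sums being 150 to 166, 154 to 197 and 215 to 247 FPKM in FL-shAlpl, FL-shGFP and NL-shGFP. Kdelr3 shares 4 exon bases with Ddx17 on the opposite strand.

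Of the import and glycosylation genes, Sec61a1 and Sec61b are parts of the translocon channel, Ssr1 is part of the translocon-associated complex and Ostc belongs to the oligosaccharyltransferase. Ostc stood at 46.04, 33.2, 34.6, 33.6 and 34.1 FPKM in FL-shAlpl, 27.9, 30.9, 29.1, 25.2 and 37.4 in FL-shGFP, and 45.4, 46.98, 53.4, 55.5 and 52.2 in NL-shGFP. Ostc fell in FL-shGFP (log2 fold change -0.75 ± 0.12, adjusted p = 0.000198) without overlap, and the other 3 passed in no comparison. Sec61b was at log2 fold change -0.29 ± 0.12, adjusted p = 0.0547 in FL-shGFP against NL-shGFP and passed without FL-shGFP replicate 5 (adjusted p = 0.0464) and without NL-shGFP replicate 1 (adjusted p = 0.0446). Over the 15 libraries Sec61a1 ran from 24.6 to 36.5 FPKM and Ssr1 from 15.8 to 22.2 FPKM.

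Read across all 3 comparisons, the 38 genes fell into a few patterns. The most common, in 13 genes, was lower in both fatty-liver groups than in NL-shGFP with no call between the fatty-liver groups: Hspa5, Hsp90b1, Hyou1, Sdf2l1, Manf, Creld2, Pdia3, Pdia6, Ern2, Creb3l1, Kdelr1, Kdelr2 and Ostc. A further 4 genes, Herpud1, Dnajb9, Sel1l and Atf6, were higher in FL-shGFP than in NL-shGFP, lower in FL-shAlpl than in FL-shGFP and not called between FL-shAlpl and NL-shGFP. Eif2ak3, Edem1 and Edem3 were lower in FL-shAlpl than in both other groups, and Syvn1 and Kdelr3 were lower at each step. Canx and Pdia4 were lower in FL-shGFP than in NL-shGFP and higher in FL-shAlpl than in FL-shGFP. Of these, Pdia4 was still lower in FL-shAlpl than in NL-shGFP, and Canx was not called there. Xbp1 was called between the fatty-liver groups alone, P4hb and Edem2 between FL-shAlpl and NL-shGFP alone, and 11 genes were called nowhere. The first pattern depended on scaling: with library totals alone 4 of the 13 genes kept it, namely Creld2, Pdia6, Ern2 and Creb3l1. The other 9 lost a call against NL-shGFP, Hspa5 and Kdelr2 in FL-shGFP and Hspa5, Hsp90b1, Hyou1, Sdf2l1, Manf, Pdia3, Kdelr1 and Ostc in FL-shAlpl. With NL-shGFP replicates 3 and 4 summed to 1 sample 9 of the 13 kept it, and with replicates 1 and 2 summed as well 7 did.

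**Figure D3:**
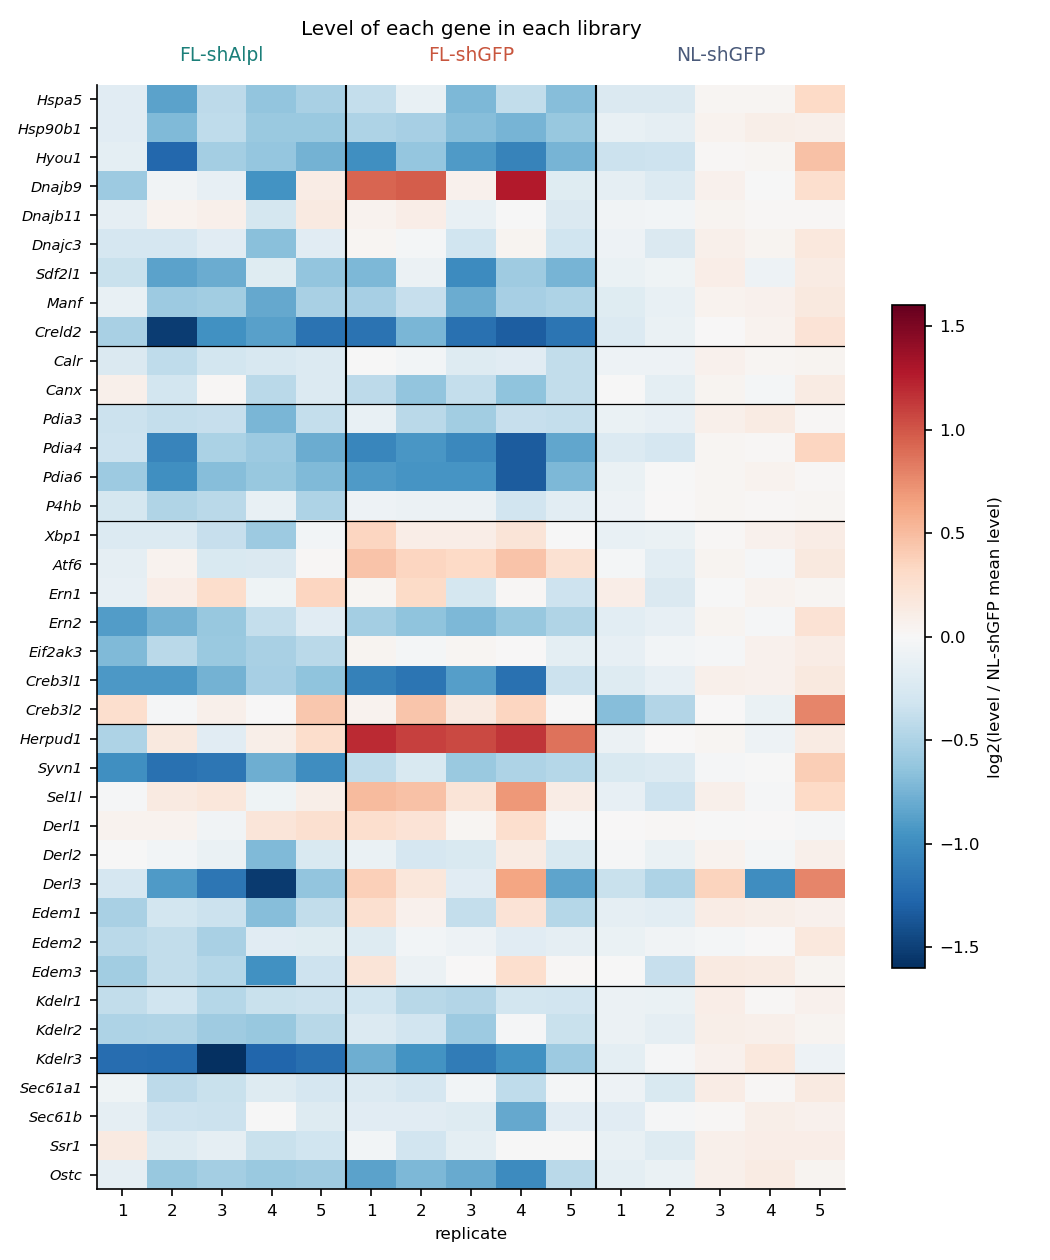
Level of each of the 38 genes (rows, by role) in each of the 15 libraries (columns, replicates 1 to 5 of FL-shAlpl, FL-shGFP and NL-shGFP) as log2 of its ratio to the NL-shGFP mean, red above and blue below. Herpud1 is red in all 5 FL-shGFP libraries, Dnajb9 in replicates 1, 2 and 4 with a faint tint in 3, and Creld2, Pdia4, Pdia6 and Kdelr3 are blue in all 10 fatty-liver libraries.

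The summed levels by role showed the same split. The degradation genes summed to 127, 154, 137, 145 and 164 FPKM in FL-shAlpl, 248, 233, 218, 248 and 202 FPKM in FL-shGFP, and 157, 155, 173, 167 and 184.5 FPKM in NL-shGFP. FL-shGFP was above both other groups in every library, and Herpud1 alone made up most of the difference. The disulfide isomerases summed to 571 to 655 FPKM in FL-shAlpl, 585 to 697 FPKM in FL-shGFP and 772 to 869 FPKM in NL-shGFP, and the lumenal chaperones to 330 to 459, 339 to 468 and 479 to 624 FPKM in the same groups. For both roles the fatty-liver libraries were all below NL-shGFP and overlapped each other.

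**Figure D4:**
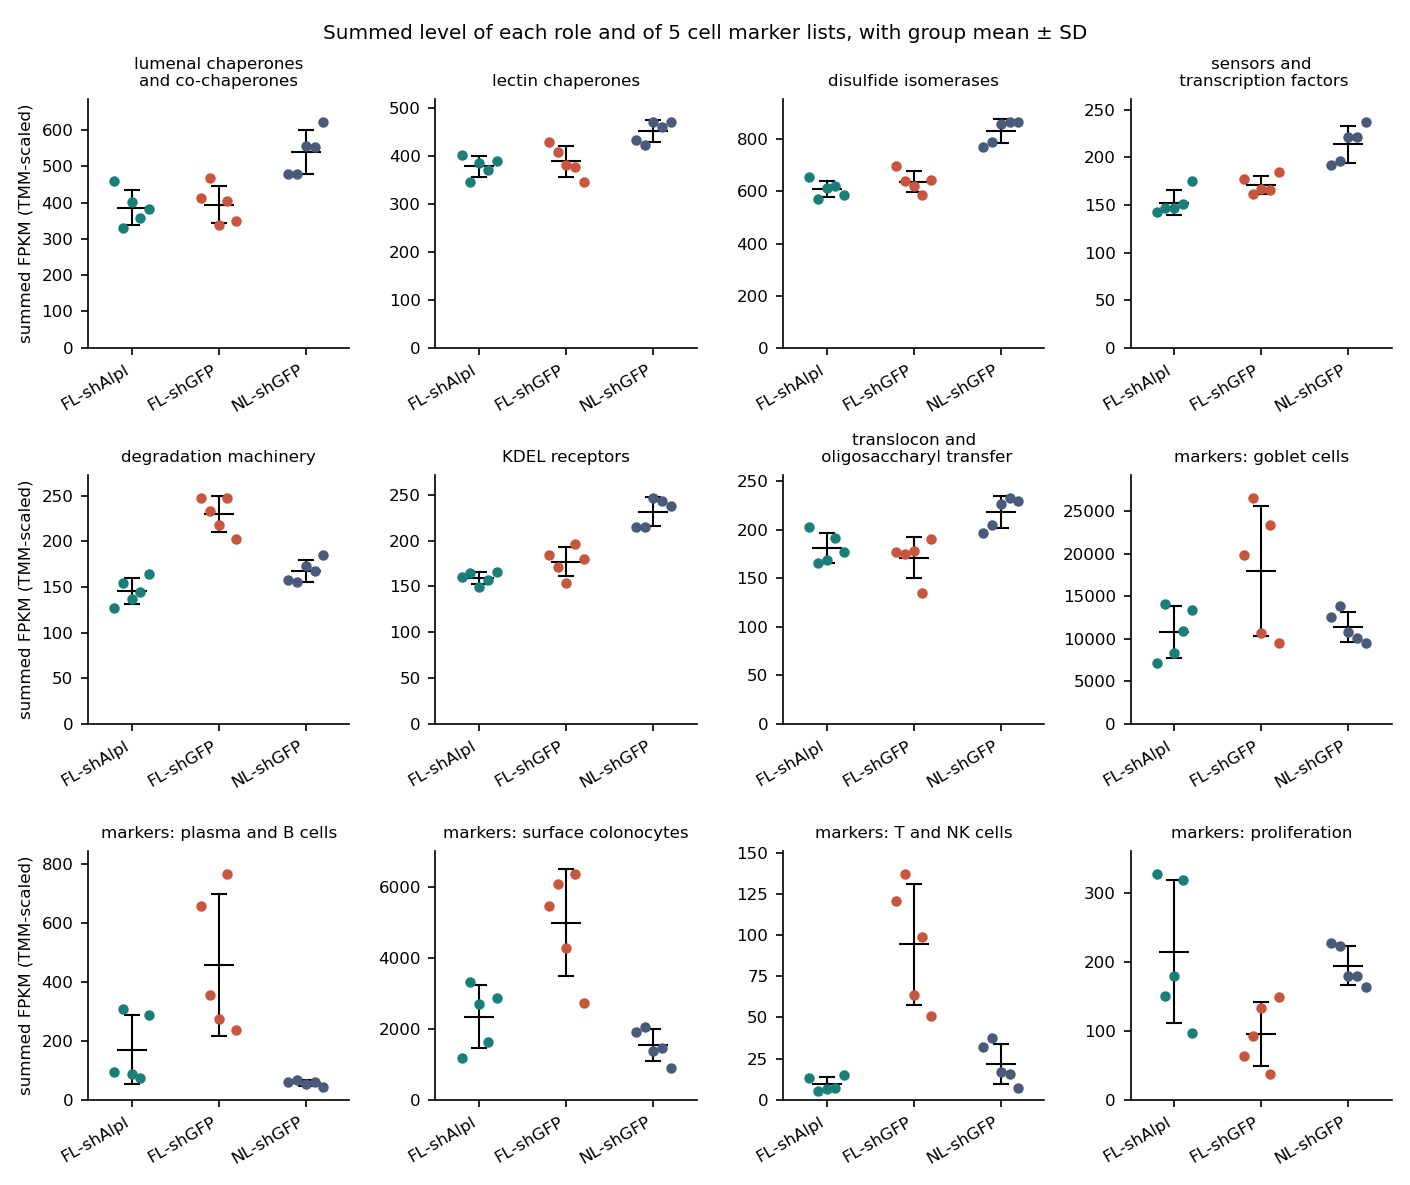
Summed FPKM scaled by TMM factors (y axis, from 0) of the genes of each of the 7 roles and of 5 cell marker lists in each library of FL-shAlpl, FL-shGFP and NL-shGFP (x axis), with bars for the group mean ± SD of 5 libraries. The degradation genes reach 127 to 164 in FL-shAlpl, 202 to 248 in FL-shGFP and 155 to 184.5 in NL-shGFP, and the goblet markers of FL-shGFP split into replicates 1, 2 and 4 and replicates 3 and 5.

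Markers of several cell types moved with the same groups. Their counts stand beside 25.1% higher and 21.6% lower over all genes tested in FL-shGFP against NL-shGFP. In FL-shAlpl against FL-shGFP those shares were 18.0% and 17.9%. The 12 goblet markers summed to 7158 to 14090 FPKM in FL-shAlpl, 9503 to 26610 FPKM in FL-shGFP and 9501 to 13800 FPKM in NL-shGFP. In FL-shGFP against NL-shGFP 5 of them were higher (Tff3, Fcgbp, Clca1, Zg16 and Bcas1), 5 were lower (Agr2, Spink4, Reg4, Klk1 and Atoh1) and 2 did not pass. FL-shGFP replicates 1, 2 and 4 had goblet sums of 19810, 26610 and 23380 FPKM and replicates 3 and 5 had 10670 and 9503 FPKM, the same split as for Dnajb9, Sel1l and Edem1. Surface colonocyte markers, 9 of 10 higher and none lower, summed to 1181 to 3310 FPKM in FL-shAlpl, 2721 to 6384 FPKM in FL-shGFP and 906.7 to 2061 FPKM in NL-shGFP. Of the stem cell markers 9 of 10 were lower and none higher in FL-shGFP against NL-shGFP, with sums of 44.4 to 77.4, 23.9 to 47.4 and 71.9 to 95.03 FPKM in FL-shAlpl, FL-shGFP and NL-shGFP.

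Plasma and B cell markers, whose cells are rich in ER, summed to 73.6 to 309.7 FPKM in FL-shAlpl, 236 to 769 FPKM in FL-shGFP and 43.6 to 68.9 FPKM in NL-shGFP. In FL-shGFP against NL-shGFP 6 of 12 were higher and none lower, and 2 of the 12 were not tested. Of the defining genes Mzb1 was at 0 in 4 libraries and Tnfrsf17 in 8. The T and NK cell markers were higher in 11 of 12, with sums of 5.60 to 14.9, 51.0 to 137 and 7.42 to 37.2 FPKM in FL-shAlpl, FL-shGFP and NL-shGFP. Proliferation markers were lower in 6 of 10, with sums of 96.7 to 328, 37.0 to 149 and 164 to 228 FPKM in the same groups. Myeloid markers were higher in 5 of 10, fibroblast and muscle markers in 5 of 10 and endothelial markers in 3 of 6, of which 1 was not tested. In FL-shAlpl against FL-shGFP stem cell markers were higher in 8 of 10 and proliferation markers in 6 of 10. Lower there were 12 of 12 T and NK cell, 8 of 10 surface colonocyte, 6 of 10 myeloid, 4 of 12 goblet, 3 of 10 fibroblast and muscle and 2 of 12 plasma and B cell markers, and 1 goblet marker was higher. The plasma and B cell share, 16.7%, was near the 17.9% lower over all genes tested. The part of all these cell types in the changes of the 38 genes was not tested.

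Spread within groups was small for most members. The coefficient of variation over 5 libraries had a median of 13.2% in FL-shAlpl, 11.8% in FL-shGFP and 8.58% in NL-shGFP over the 38 genes, against 23.6%, 24.5% and 15.6% over all genes tested. The members and all genes tested were not matched for abundance. In NL-shGFP the scarcest members, Derl3 and Creb3l2, varied most, at 49.45% and 43.2%. Within NL-shGFP the libraries differed as a block: replicate 5 was the highest of the 5 for 23 of the 38 genes, and replicates 1 and 2 were the lowest for 19 and 17. Replicate 5 was also the farthest of its group beyond the members. Its median chi-squares over genes were 12.5 to 13.5, against 1.55 to 5.40 between the other NL-shGFP libraries. FL-shGFP replicates 1, 2 and 4 were above the mean log2 level of their group for 29, 24 and 22 of the 38 genes. Replicates 3 and 5 of that group were above it for 9 and 13. Such counts were not made over all genes tested, so they do not show a trait of the members alone. Summed over all 38 genes the level was 1878 to 2149 FPKM in FL-shAlpl, 2058 to 2326 FPKM in FL-shGFP and 2443 to 2854 FPKM in NL-shGFP.

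The 7 lists of related genes, 110 in all, place the members in the wider pathway, and a value with ± beside a gene of these lists is its log2 fold change with the standard error. In FL-shGFP against NL-shGFP the counts stand beside 25.1% higher and 21.6% lower over all genes tested, and in FL-shAlpl against FL-shGFP beside 18.0% and 17.9%. Of 22 other folding enzymes, 13 (59.1%) were lower and 3 (13.6%) higher in FL-shGFP against NL-shGFP, and 1 of the 22 was not tested. The smallest p were those of Txndc5 (-1.08 ± 0.14, adjusted p = 5.05e-05) and Pdia5 (-1.20 ± 0.17, adjusted p = 9.45e-05), both relatives of protein disulfide isomerase, and of the proline isomerases Fkbp2 (-0.50 ± 0.07, adjusted p = 7.5e-05) and Fkbp11 (-1.25 ± 0.20, adjusted p = 0.000224). All 5 libraries of FL-shGFP were below all of NL-shGFP for each of the 4. Selenof and Cnpy2, the most abundant that did not pass, stood at -0.16 ± 0.09 and -0.10 ± 0.13. In FL-shAlpl against FL-shGFP 2 of these enzymes were higher and 3 lower.

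Of 22 further genes of the translocon, signal peptidase and oligosaccharyltransferase, none was higher and 14 (63.6%) were lower in FL-shGFP against NL-shGFP, and 2 were higher and 1 lower in FL-shAlpl against FL-shGFP. Among them the signal peptidase genes Sec11c (-0.61 ± 0.12, adjusted p = 0.000768), Sec11a (-0.34 ± 0.07, adjusted p = 0.00105) and Spcs1 (-0.41 ± 0.08, adjusted p = 0.00120) and the oligosaccharyltransferase subunit Magt1 (-0.54 ± 0.11, adjusted p = 0.00113) had the smallest p. Ddost and Srpr, at -0.10 ± 0.11 and -0.14 ± 0.08, did not pass there. Of 14 other degradation genes, 5 (35.7%) were higher and 2 (14.3%) lower in FL-shGFP. The glycanase gene Ngly1 (0.64 ± 0.12, adjusted p = 0.000594) and Nploc4 (0.51 ± 0.10, adjusted p = 0.000920), a partner of the p97 segregase, were higher, and the ubiquitin ligase gene Rnf5 (-0.69 ± 0.13, adjusted p = 0.000907) was lower. Os9 and Vcp did not pass in that comparison (0.25 ± 0.12 and -0.05 ± 0.12).

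Rnf5 was higher in FL-shAlpl than in FL-shGFP (0.75 ± 0.13, adjusted p = 0.000982), and over the degradation list 2 were higher and 2 lower there. Of 8 membrane-bound transcription factors, their proteases and related genes, 2 (25%) were higher and 3 (37.5%) lower in FL-shGFP against NL-shGFP, and 1 was higher and 3 lower in FL-shAlpl against FL-shGFP. Creb3l3, a CREB-type factor best known from liver and gut, averaged 1.63, 8.49 and 0.561 FPKM in FL-shAlpl, FL-shGFP and NL-shGFP. It was higher in FL-shGFP than in NL-shGFP (3.91 ± 0.45, adjusted p = 2.73e-05) and lower in FL-shAlpl than in FL-shGFP (-2.38 ± 0.41, adjusted p = 0.000972). Its relative Creb3l4 (-1.09 ± 0.14, adjusted p = 5.05e-05), the ATF6 relative Atf6b (-0.68 ± 0.10, adjusted p = 0.000133) and the protease gene Mbtps1 (-0.39 ± 0.09, adjusted p = 0.00400), whose product cuts ATF6, were lower in FL-shGFP, while Creb3 and Mbtps2 did not pass (-0.12 ± 0.10 and 0.30 ± 0.12). Atf6b thus differed in direction from Atf6, which was higher in that comparison.

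The integrated stress response, which PERK and other kinases start through ATF4, held 5 higher (35.7%) and 2 lower (14.3%) of 14 genes in FL-shGFP against NL-shGFP, and 1 higher and 5 lower in FL-shAlpl against FL-shGFP. Ddit4, an inhibitor of mTORC1, averaged 31.5, 68.4 and 29.6 FPKM in FL-shAlpl, FL-shGFP and NL-shGFP, higher in FL-shGFP (1.21 ± 0.14, adjusted p = 2.61e-05) and lower in FL-shAlpl (-1.12 ± 0.14, adjusted p = 0.000106 against FL-shGFP). The lipoprotein receptor gene Vldlr (1.87 ± 0.22, adjusted p = 2.73e-05), the transcription factor gene Atf5 (0.71 ± 0.11, adjusted p = 0.000187) and Sesn2 (0.47 ± 0.13, adjusted p = 0.00907) were also higher in FL-shGFP. Atf4 and Cebpb were the lower ones, and the stress markers Ddit3, Trib3 and Chac1 did not pass. Nupr1 and Ppp1r15b, the most abundant that did not pass, stood at -0.31 ± 0.31 and 0.29 ± 0.15.

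**Figure D5:**
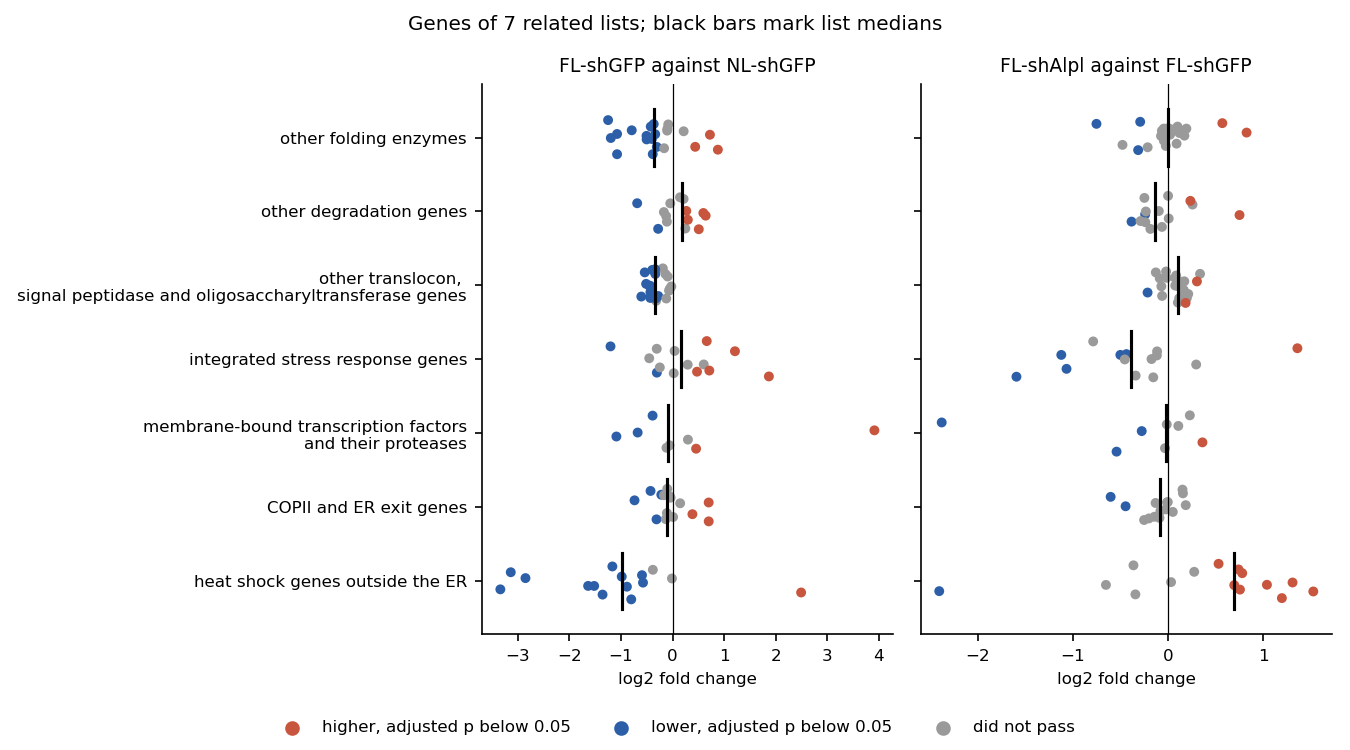
Log2 fold changes (x axis) of single genes (points) in 7 related lists (y axis) in FL-shGFP against NL-shGFP and in FL-shAlpl against FL-shGFP, from edgeR with 5 libraries in each group, with black bars at list medians. Of the translocon, signal peptidase and oligosaccharyltransferase genes 14 of 22 were lower and none higher in the left panel, and of the heat shock genes outside the ER 12 of 15 were lower there and 9 of 15 higher in the right panel.

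Of 15 COPII and ER exit genes, 3 (20%) were higher and 4 (26.7%) lower in FL-shGFP against NL-shGFP, near the shares over all genes. The vesicle coat genes Sar1b (0.70 ± 0.11, adjusted p = 0.000207) and Sec23a (0.70 ± 0.14, adjusted p = 0.00133) were higher. The cargo receptor gene Lman1 (-0.74 ± 0.12, adjusted p = 0.000276) and the coat gene Sec31a (-0.43 ± 0.10, adjusted p = 0.00273) were lower. Tmed2 and Surf4 did not pass (-0.17 ± 0.08 and -0.10 ± 0.09), and 2 of the 15 were lower and none higher in FL-shAlpl against FL-shGFP. The heat shock genes outside the ER, most of them cytosolic and Hspd1 and Hspe1 mitochondrial, were lower in 12 of 15 (80%) and higher in 1, Hspb1, in FL-shGFP against NL-shGFP, with a median of -0.99. Hsph1 (-3.34 ± 0.39, adjusted p = 2.85e-05), Hspe1 (-1.64 ± 0.27, adjusted p = 0.000307), Hsp90aa1 (-1.52 ± 0.19, adjusted p = 3.71e-05) and St13 (-0.80 ± 0.13, adjusted p = 0.000206) led by p, and Cct2 and Dnajb1 did not pass (-0.38 ± 0.17 and -0.01 ± 0.18). In FL-shAlpl against FL-shGFP 9 of these were higher and 1 lower, with a median of 0.70, where the lumenal chaperones of the ER had a median of 0.03 and none of 9 higher.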

How the data were processed

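Colonic crypt RNA of mice was read in 15 RNA-seq libraries, 5 in each of FL-shAlpl, FL-shGFP and NL-shGFP. Libraries were made from mRNA-enriched RNA after column purification, per the labels' protocols. HISAT2 is the tool in the submitters' processing notes; its version, the counting tool, strand setting, genome build and gene models were not given in the sources used here. Read counts and FPKM, both per gene, were deposited by the authors. Deposited FPKM equalled the counts over a gene length and the library total (relative deviation at most 1.12e-06). Of counts from 1 to 12, 72.4% to 77.2% per library were even, so a fragment may enter as 2 counts. No value column lacked a sample, and 698 of 32939 genes matched no symbol.

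All 15 libraries entered 1 edgeR 4.0.16 quasi-likelihood fit (R 4.3.3, robust, TMM factors, 17404 genes passing filterByExpr by group, 12 residual degrees of freedom). The 3 comparisons were tested two-sided with Benjamini-Hochberg adjustment over all genes tested, at 0.05. Beside a log2 fold change ± is its standard error, and beside FPKM an SD. The common biological coefficient of variation was 30.2%. Whether replicates are separate animals is not labelled, so p-values measure the spread between samples. The members and lists were chosen with earlier results of these data known. Values in every library are given for members with an adjusted p below 0.05 in FL-shGFP against NL-shGFP or FL-shAlpl against FL-shGFP and for the sensors. Fold changes are given for up to 4 passing genes of each related list by p in FL-shGFP against NL-shGFP and the 2 most abundant that did not pass; other genes of these lists named in passing were chosen after their values were seen. For 1 gene of these lists the result is not reported here, though it is in the counts. Alternatives were RLE and upper-quartile factors, library totals, no filter, 1 CPM in 5 libraries, DESeq2 1.42.0, limma 3.58.1 (voom with quality weights, and trend on log2(FPKM + 1) and log2(FPKM + 0.1)), only the groups compared, a replicate block, close libraries summed, no mitochondrially encoded genes, and each library left out. Code was tested on simulated data. Promoter windows came from RefSeq, and figures from Python 3.11.15 and matplotlib 3.10.9.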

Additional observations from a re-analysis of the deposited data

Results flagged for a closer look

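In 7 of 114 sets of 5 libraries (38 genes in 3 groups) 1 library stood apart from the other 4, its gap to the nearest being above Dixon's 95% critical value of 0.71 of the range; chance gives about 1 in 20 such sets. In FL-shAlpl, replicate 4 was low for Dnajc3 (17.56 FPKM, the others 23.16 to 24.70) and for Pdia3 (184.8 FPKM, the others 234.8 to 240.8), replicate 3 was low for Kdelr3 (10.08 FPKM, the others 13.42 to 14.02), and replicate 1 was high for Ostc (46.04 FPKM, the others 33.19 to 34.62). In FL-shGFP, replicate 2 was high for Creld2 (30.89 FPKM, the others 20.58 to 22.85) and replicate 4 was low for Sec61b (64.66 FPKM, the others 99.01 to 101). In NL-shGFP, replicate 1 was low for P4hb (318.9 FPKM, the others 339.1 to 346.1).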

How the results depend on the processing

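The counts of members lower in FL-shGFP against NL-shGFP and in FL-shAlpl against FL-shGFP stayed within 1.5 times of 17 and 10 under every alternative run, and no member reversed a called direction. In FL-shAlpl against NL-shGFP, library totals alone and limma-trend on log2(FPKM + 1) or log2(FPKM + 0.1) gave 9 members lower, against 21, and 1 higher, against 0. Over all 17404 genes tested they gave 930, 991 and 1014 lower, against 1414, and 2783, 2356 and 2520 higher, against 1621. All of these settings scaled by library totals, since the FPKM entered without TMM factors. The same 12 members lost their calls in each, and Derl1 gained one. Why the 2 kinds of scaling differed was not tested. The count higher in FL-shGFP against NL-shGFP was 2, against 4, with NL-shGFP replicates 3 and 4, and 1 and 2, summed. In FL-shAlpl against FL-shGFP the count higher, 2, was 0 with upper-quartile factors and with only the groups compared, and 1 with library totals alone, 1 CPM in 5 libraries, voom with quality weights, both limma-trend fits, the replicate block, NL-shGFP replicates 3 and 4 summed (chosen after seeing the data) and both pairs summed. Leaving out each library gave 0 to 5 there (5 without FL-shGFP replicate 5), 3 to 5 higher and 15 to 18 lower in FL-shGFP against NL-shGFP, 8 to 11 lower in FL-shAlpl against FL-shGFP, and 16 to 21 lower in FL-shAlpl against NL-shGFP. The calls of 15 of 21 passing members in FL-shGFP against NL-shGFP, 8 of 12 in FL-shAlpl against FL-shGFP and 9 of 21 in FL-shAlpl against NL-shGFP held under all alternatives.

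Same-numbered libraries did not deviate together (correlations of -0.353 to 0.326), so the replicate numbers were not taken as pairs; with the replicate block Hspa5 and Dnajb9 lost their calls in FL-shGFP against NL-shGFP, Pdia4, Sel1l and Edem1 in FL-shAlpl against FL-shGFP, and Hspa5, Hyou1, P4hb and Edem1 in FL-shAlpl against NL-shGFP. The closest libraries differed by more than sampling noise and all 15 were kept separate, although that does not show separate animals. Members lower in FL-shAlpl against NL-shGFP numbered 16 with NL-shGFP replicates 3 and 4 summed and 14 with both pairs summed, against 21; in FL-shGFP against NL-shGFP Hspa5, Dnajb9 and Kdelr2 lost their calls with 3 and 4 summed, and Dnajb9, Pdia3, Sel1l and Kdelr2 with both pairs summed. Depth bears most on Derl3, which had the lowest levels of the 38 genes.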
